A study of Mus musculus with 8 samples.

Results

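The interferon-gamma inducible GTPases examined here were 10 genes, taken by symbol: Iigp1, Irgm1, Irgm2 and Igtp of the immunity-related GTPase family, and Gbp2, Gbp3, Gbp4, Gbp5, Gbp6 and Gbp7 of the guanylate-binding protein family. They were 10 genes beside a table of 19938 genes that have a probe set of their own. Iigp1, Irgm1, Gbp3, Gbp4, Gbp5 and Gbp7, 6 members in all, had such a probe set. The other 4 members were read only by probe sets annotated to several genes: Igtp and Irgm2 by the same probe set, Gbp2 by a probe set that also carries Gbp2b, and Gbp6 by a probe set that also carries Gbp4, Gbp8, Gbp9, Gbp10 and Gbp11. These 3 shared probe sets are called Igtp/Irgm2, Gbp2 (shared) and Gbp6 (shared), and their signal cannot be divided among the genes. The 10 members therefore gave 9 probe sets.

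The arrays came from 4 groups of mouse T helper cells, with 2 arrays each that the titles call biological replicates. Tet2-deficient Th1 cells and Tet2-deficient Th17 cells were derived from CD2(Cre)Tet2(f/f) mice, and wild-type Th1 cells and wild-type Th17 cells from Tet2(f/f) mice, so every group carried the floxed Tet2 allele and wild-type cells lacked the Cre transgene. The CD2 promoter is known to be active across the lymphocyte lineage, and the labels give neither the age, sex or number of mice nor the culture conditions. Tet2 oxidizes 5-methylcytosine in DNA, and the series addresses its part in these T helper subsets. Because the labels do not say whether replicates came from separate animals or cultures, p-values measure the spread between these arrays.

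Interferon-gamma binds a receptor that activates the kinases Jak1 and Jak2, and promoters of genes that respond to it often hold the gamma-activated sequence (GAS). The transcription factor Irf1, itself induced by the cytokine, binds the interferon-stimulated response element (ISRE). The GTPases induced in this way coat and break the vacuoles of intracellular pathogens, a defence best known from macrophages. In mice, loss of Irgm1 is also known to impair the expansion of CD4 T cells exposed to interferon-gamma. Th1 cells secrete the cytokine, and the signals of its receptor genes are given below.

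RefSeq promoter windows of GRCm38.p6, from 250 bases before to 50 after an annotated start site, were used for 7 of the members. These were Gbp2, Gbp3, Gbp5, Gbp7, Irgm1, Igtp and Irgm2, with 8 windows in all because Gbp3 has a pair of start sites. Iigp1, Gbp4 and Gbp6 were not searched, so the counts below do not cover these members. The GAS pattern TTCNNNGAA, which reads alike on both strands, was found in 4 of the 8 windows, against 8.30% of all 32851 promoter windows of the same length. The ISRE pattern, GAAA followed by any 2 bases and a second GAAA, searched on both strands, was found in 7 of the 8 windows, against 3.44% of all windows. The exception was the second start site of Gbp3. In Igtp and Irgm2 the GAS match was followed by an ISRE match whose first base lay 11 bases further on. The GAS matches of this pair differ in a single letter, at a free position of the pattern, and the ISRE matches are the same. The bases next to the matches are alike too, so the 2 windows are not independent in the counts above. The longest unbroken run that both windows share, of 61 bases, lies downstream of both matches. In Gbp3 and Irgm1 the ISRE matches overlapped each other, 2 in each. No GAS match overlapped an ISRE match. Matches are letters in a window and not measured binding. The windows of Igtp and Irgm2 are printed for their shared layout, that of Gbp7 for a pair of GAS matches upstream of an ISRE match, and that of Irgm1 for the overlapping ISRE matches, each in the direction of transcription with GAS and ISRE matches in capitals.

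Igtp (chr11:58199306-58199605, plus strand): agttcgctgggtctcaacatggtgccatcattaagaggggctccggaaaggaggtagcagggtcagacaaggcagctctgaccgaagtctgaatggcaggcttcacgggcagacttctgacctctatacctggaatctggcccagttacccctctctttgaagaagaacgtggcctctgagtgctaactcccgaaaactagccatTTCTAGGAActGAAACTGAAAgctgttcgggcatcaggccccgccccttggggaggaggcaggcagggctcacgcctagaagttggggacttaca
Irgm2 (chr11:58214727-58215026, plus strand): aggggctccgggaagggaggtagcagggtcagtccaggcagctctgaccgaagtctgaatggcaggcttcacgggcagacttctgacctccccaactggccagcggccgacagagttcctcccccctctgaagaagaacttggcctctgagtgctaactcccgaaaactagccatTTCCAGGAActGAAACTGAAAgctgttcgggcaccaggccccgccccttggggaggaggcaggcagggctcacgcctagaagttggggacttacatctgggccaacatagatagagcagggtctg
Gbp7 (chr3:142530086-142530385, plus strand): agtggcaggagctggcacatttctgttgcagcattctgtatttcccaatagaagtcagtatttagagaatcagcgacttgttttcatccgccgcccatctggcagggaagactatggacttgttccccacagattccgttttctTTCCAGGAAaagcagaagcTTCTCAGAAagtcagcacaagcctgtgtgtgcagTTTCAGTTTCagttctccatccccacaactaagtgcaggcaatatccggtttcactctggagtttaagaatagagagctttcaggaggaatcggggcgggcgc
Irgm1 (chr11:48871371-48871670, minus strand): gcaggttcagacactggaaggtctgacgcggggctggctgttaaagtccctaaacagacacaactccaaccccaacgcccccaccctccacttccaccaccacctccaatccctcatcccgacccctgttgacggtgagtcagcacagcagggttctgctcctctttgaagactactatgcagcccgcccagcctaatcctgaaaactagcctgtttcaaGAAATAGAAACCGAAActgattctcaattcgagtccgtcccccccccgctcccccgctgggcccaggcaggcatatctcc

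**Figure D1:**
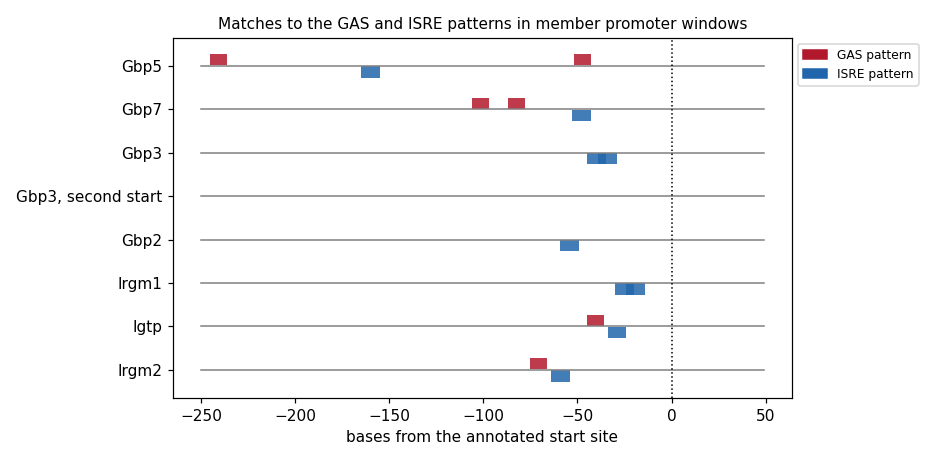
Positions of GAS pattern matches (red) and ISRE pattern matches (blue) in 8 promoter windows of 7 members, in bases from the annotated start site (dotted line at 0; grey line, the window). Matches to the ISRE pattern lie in every window except the second start of Gbp3, the nearest beginning 24 bases before the start site, in Irgm1.

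The members also lie in clusters, at these positions of GRCm38. On chromosome 3 lie Gbp5 (chr3:142496934-142522344, probe set 10496539), Gbp7 (chr3:142530336-142550151, probe set 10496569), Gbp3 (chr3:142560016-142573213, probe set 10496580) and Gbp2 (chr3:142620663-142638008, probe set 10496592). These genes and Gbp2b, between Gbp3 and Gbp2, follow one another with no other protein-coding gene among them, from Pdlim5 on one side to Kyat3 on the other. On chromosome 5 Gbp4 (chr5:105115767-105139586, probe set 10531987) and Gbp6 (chr5:105270702-105295871, probe set 10531994) lie in the order Gbp9, Gbp4, Gbp10, Gbp6. On chromosome 11 Igtp (chr11:58199556-58207592) lies between Gm12250, another inducible GTPase gene, and Irgm2 (chr11:58214977-58222783), and Igtp and Irgm2 are read by probe set 10376326. Irgm1 (chr11:48865245-48871420, probe set 10385500) lies elsewhere on chromosome 11, and Iigp1 (probe set 10455961) on chromosome 18.

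Values are log2 probe-set signals, on which the median of the tested rows lay between 6.53 and 6.61 on every array, and levels of different probe sets are not compared. The number after ± is the standard error of that log2 fold change, with n = 2 arrays per group. Genes were tested with limma over 19941 rows, the 19938 genes plus the 3 shared probe sets, and a row was called at an adjusted p under 0.05. Tet2 itself had log2 signals of 8.12 and 7.98 on the Tet2-deficient and 8.14 and 8.02 on the wild-type Th1 arrays. On the Th17 arrays it had 8.34 and 8.39 where Tet2-deficient and 8.51 and 8.49 where wild-type. This is no check of the labels, since the probes can bind RNA outside the deletion. Xist, the RNA that coats the inactive X chromosome of female cells, lay between 4.798 and 5.07 on the Th1 arrays. On the Th17 arrays it was 8.60 and 11.27 in Tet2-deficient and 5.15 and 10.07 in wild-type cells, so those arrays differ in the share of female RNA. They differ in it from the Th1 arrays too. Among Tet2-deficient cells both Th17 arrays lay far above both Th1 arrays, so subset and share of female RNA cannot be fully told apart there. Among wild-type cells the Th17 array at 10.07 lay far above the Th1 arrays. All 5 T cell markers lay well above the array medians, at 8.66 to 12.2, while all 6 macrophage and monocyte markers (4.59 to 5.99) and all 5 dendritic cell markers (5.08 to 6.13) lay under the array median on every array. Within that low range the mean of the macrophage markers was 5.29 to 5.42 on Th1 and 5.19 to 5.29 on Th17 arrays, and that of the dendritic cell markers 5.72 to 5.80 on Th1 and 5.52 to 5.63 on Th17 arrays. Under the array median on every array were also 3 of 5 natural killer cell, 4 of 5 neutrophil, 3 of 4 B cell and 1 of 2 CD8 T cell markers. Among the exceptions, the neutrophil marker Ly6g (8.35 to 10.39) was higher on the Th17 arrays. Of the natural killer cell markers, Klrd1 (5.70 to 8.07) was higher on the Th17 and Eomes (6.66 to 8.26) on the Th1 arrays. The part of such cells in the subset differences was not tested.

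Ifng encodes interferon-gamma. Its log2 signal was 10.43 and 10.18 in Tet2-deficient Th1 cells, 11.55 and 11.84 in wild-type Th1 cells, 5.92 and 5.99 in Tet2-deficient Th17 cells and 6.03 and 5.97 in wild-type Th17 cells. The Th1 arrays were thus far above the Th17 arrays, and the Tet2-deficient Th1 arrays lay between the wild-type Th1 and the Th17 arrays. Ifng was 20.4-fold higher in Th1 than in Th17 cells among Tet2-deficient cells (log2 fold change 4.35 ± 0.14, adjusted p = 3.02e-09, limma) and 51.7-fold higher among wild-type cells (5.69 ± 0.14, adjusted p = 2.26e-10, limma). Its Th17 signals lay under the array median and within the range of the macrophage and dendritic cell markers given above, so these folds are lower bounds if that signal is background.

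Th1 cells were set against Th17 cells first. All 9 member probe sets had higher means in Th1 than in Th17 cells in both genotypes, and on all 9 the Th1 arrays did not overlap the Th17 arrays of the same genotype. Of the 9, 8 were called higher in Tet2-deficient cells, where 3.8% of all rows were called higher, and 8 were called higher in wild-type cells, where 3.45% were. None was called lower, a call made for 6.32% of all rows in Tet2-deficient and 4.96% in wild-type cells. In bulk RNA, fewer cells that express a gene and less of its RNA per cell cannot be told apart. Non-overlapping higher arrays were found in 31.7% of all rows in Tet2-deficient and 28.5% in wild-type cells. The median log2 fold change of the 9 was 1.498 in Tet2-deficient cells, against 0.03 over all rows, and 1.35 in wild-type cells, against 0.03 over all rows. The subsets also differed in Xist, as given above. With its signal as a covariate, 728 of all rows were called in either direction in Tet2-deficient cells, against 2018 without it. In wild-type cells 1188 were called, against 1678. The cause of the drop was not tested.

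Iigp1, which encodes an effector GTPase that assembles on the vacuole membrane of Toxoplasma, had a log2 signal of 8.77 and 9.55 in Tet2-deficient Th1 cells and 9.01 and 8.68 in wild-type Th1 cells. It had 5.10 and 5.22 in Tet2-deficient Th17 cells and 5.38 and 5.26 in wild-type Th17 cells. The Th17 signals lay under the array median and within the range of the macrophage markers, while the Th1 signals lay well above it. Iigp1 rose 16.0-fold in Th1 over Th17 cells among Tet2-deficient cells (log2 fold change 3.998 ± 0.20, adjusted p = 1.71e-07, limma) and 11.5-fold among wild-type cells (3.52 ± 0.20, adjusted p = 5.45e-07, limma). As for Ifng, these folds are lower bounds if the Th17 signal is background.

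Among the regulators, Irgm1 had 9.55 and 9.46 on the Tet2-deficient and 9.15 and 8.96 on the wild-type Th1 arrays, with 8.14 and 7.88 on the Tet2-deficient and 7.56 and 7.84 on the wild-type Th17 arrays. Irgm1, Irgm2 and Igtp are known to hold the effector GTPases inactive on the cell's own membranes. Irgm1 was 2.82-fold higher in Th1 than in Th17 cells among Tet2-deficient cells (log2 fold change 1.498 ± 0.14, adjusted p = 3.69e-05, limma) and 2.55-fold higher among wild-type cells (1.35 ± 0.14, adjusted p = 8.69e-05, limma). The Igtp/Irgm2 probe set had 9.72 and 10.08 on the Tet2-deficient and 9.64 and 9.78 on the wild-type Th1 arrays, with 8.74 and 8.60 on the Tet2-deficient and 8.62 and 9.01 on the wild-type Th17 arrays. Its log2 fold change of Th1 over Th17 was 1.23 ± 0.16 in Tet2-deficient cells (adjusted p = 0.00042, limma) and 0.89 ± 0.16 in wild-type cells (adjusted p = 0.00471, limma). The second of these calls ended when all probe sets of the array were tested together (adjusted p = 0.0633).

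Among the guanylate-binding proteins of chromosome 5, Gbp4 had 10.24 and 10.33 on the Tet2-deficient and 10.42 and 10.27 on the wild-type Th1 arrays, with 7.84 and 7.82 on the Tet2-deficient and 7.97 and 8.36 on the wild-type Th17 arrays. Its log2 fold change of Th1 over Th17 was 2.46 ± 0.14 in Tet2-deficient cells (adjusted p = 5.75e-07, limma) and 2.18 ± 0.14 in wild-type cells (adjusted p = 1.59e-06, limma). Gbp6 (shared) had 10.11 and 10.30 on the Tet2-deficient and 10.25 and 10.04 on the wild-type Th1 arrays, with 7.39 and 7.47 on the Tet2-deficient and 7.81 and 7.87 on the wild-type Th17 arrays. Both probe sets showed 2 levels, with the Th1 arrays of both genotypes close together and the Th17 arrays well below. The log2 fold change of Gbp6 (shared) was 2.77 ± 0.13 in Tet2-deficient cells (adjusted p = 8.05e-08, limma) and 2.31 ± 0.13 in wild-type cells (adjusted p = 3.55e-07, limma). Gbp4 is annotated to this probe set too, so the pair is not independent.

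For the guanylate-binding proteins of chromosome 3 the log2 fold changes of Th1 over Th17 lay between 0.38 and 1.82. Gbp7, which takes part in bringing the phagocyte oxidase to pathogen vacuoles, had 9.18 and 8.97 on the Tet2-deficient and 9.17 and 8.76 on the wild-type Th1 arrays, with 7.12 and 7.39 on the Tet2-deficient and 7.47 and 7.73 on the wild-type Th17 arrays. Its log2 fold change of Th1 over Th17 was 1.82 ± 0.16 in Tet2-deficient cells (adjusted p = 2.28e-05, limma) and 1.36 ± 0.16 in wild-type cells (adjusted p = 0.000243, limma). Gbp3 had 8.17 and 8.16 on the Tet2-deficient and 8.30 and 8.07 on the wild-type Th1 arrays, with 7.39 and 7.57 on the Tet2-deficient and 7.42 and 7.55 on the wild-type Th17 arrays. The groups of Gbp3 did not overlap between subsets but stood less than 1 log2 unit apart. Its log2 fold changes were 0.68 ± 0.12 in Tet2-deficient cells (adjusted p = 0.00416, limma) and 0.70 ± 0.12 in wild-type cells (adjusted p = 0.00468, limma). Without Tet2-deficient Th17 replicate 1 the first of these was not called (adjusted p = 0.0635).

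Gbp5, known for promoting inflammasome assembly, had 9.52 and 9.80 on the Tet2-deficient and 9.53 and 9.24 on the wild-type Th1 arrays, with 8.88 and 8.92 on the Tet2-deficient and 8.90 and 9.11 on the wild-type Th17 arrays. The wild-type Th1 and wild-type Th17 arrays came close to each other without overlapping. Gbp5 was called in Tet2-deficient cells (log2 fold change 0.76 ± 0.14, adjusted p = 0.00547, limma). It had 0.38 ± 0.14 in wild-type cells (adjusted p = 0.126, limma). This difference between genotypes did not pass its own test (0.38 ± 0.20, adjusted p = 0.999, limma), a test that no row passed, Ifng included. The Tet2-deficient call ended with all probe sets tested (adjusted p = 0.0514) and without Tet2-deficient Th17 replicate 1 (0.0579) or Tet2-deficient Th1 replicate 2 (0.0568). The product of Gbp2 is known to gather on Toxoplasma vacuoles. Gbp2 (shared) had 10.74 and 11.71 on the Tet2-deficient and 10.85 and 11.13 on the wild-type Th1 arrays, with 10.51 and 10.33 on the Tet2-deficient and 9.92 and 10.21 on the wild-type Th17 arrays. Its Tet2-deficient Th1 arrays lay 0.97 apart, the widest gap between arrays of a group among the 9 probe sets. Its log2 fold change was 0.81 ± 0.24 in Tet2-deficient cells (adjusted p = 0.0554, limma) and 0.93 ± 0.24 in wild-type cells (adjusted p = 0.0357, limma). The wild-type call ended under 8 of 18 alternatives, with adjusted p up to 0.163, among them the loss of any single Th17 or wild-type Th1 array. The Tet2-deficient difference was called under 3 of 18, among them without Tet2-deficient Th1 replicate 1 (adjusted p = 0.00244).

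**Figure D2:**
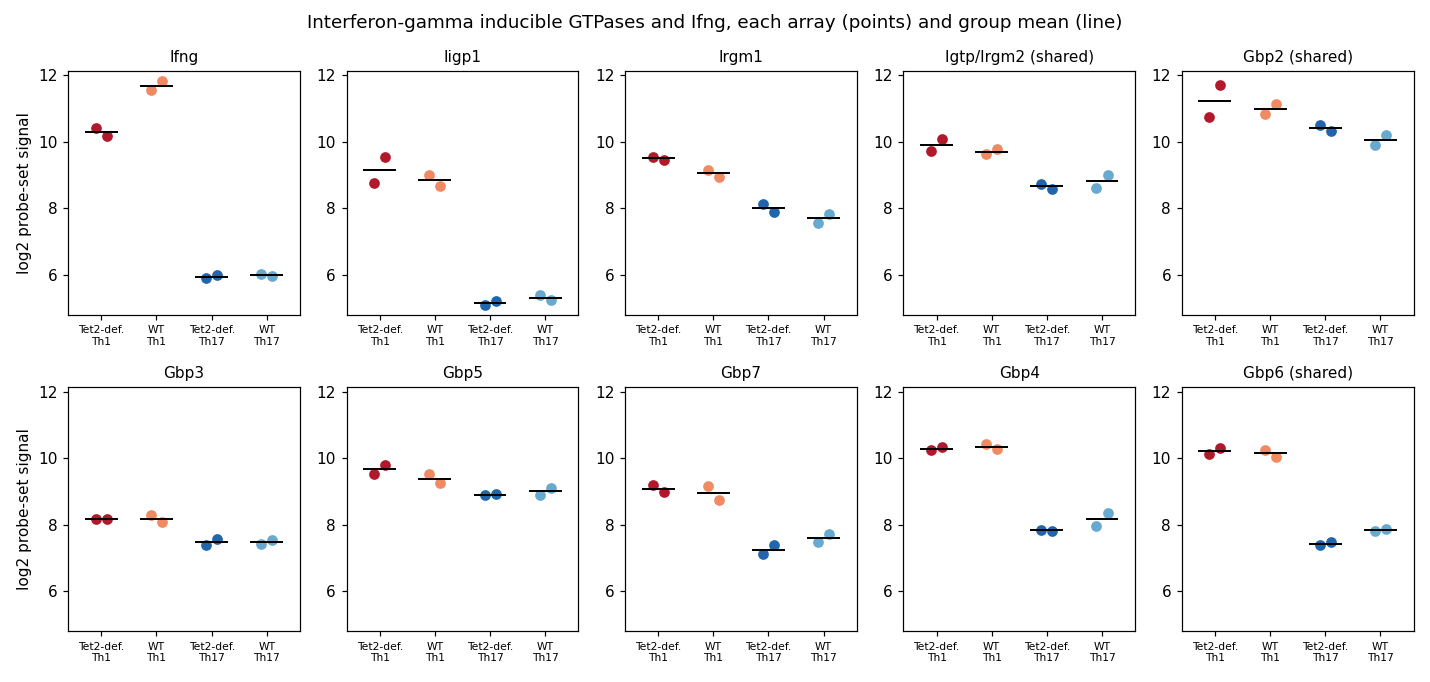
Log2 probe-set signal (y axis) of Ifng and the 9 member probe sets on each of the 8 arrays, with 2 points per group and a line at the group mean, in Tet2-deficient Th1, wild-type Th1, Tet2-deficient Th17 and wild-type Th17 cells. Ifng steps down in Tet2-deficient Th1 cells (10.43 and 10.18, against 11.55 and 11.84 in wild-type Th1), while Gbp4 has 10.24 and 10.33, against 10.42 and 10.27.

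**Figure D3:**
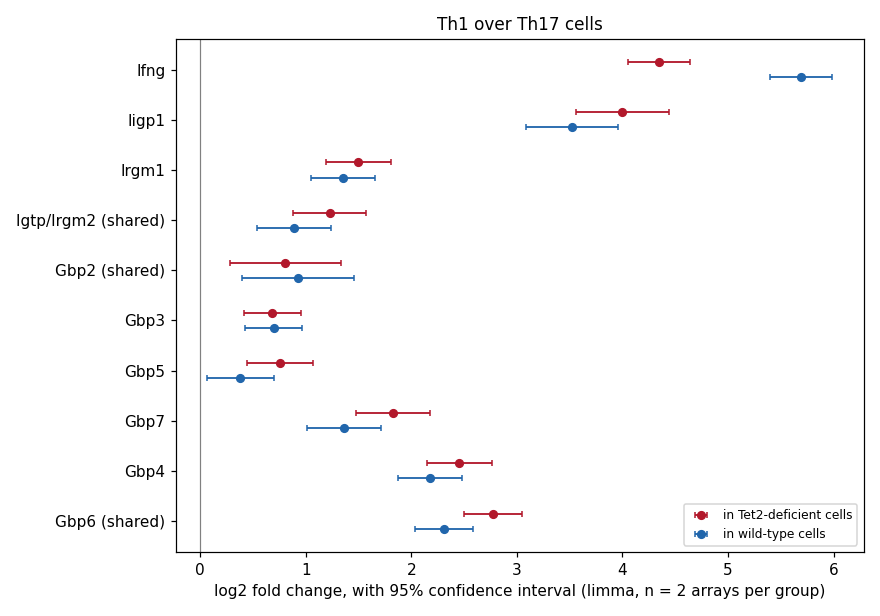
Log2 fold change of Th1 over Th17 cells (points) with 95% confidence intervals from limma, for Ifng and the 9 member probe sets, in Tet2-deficient (red) and wild-type cells (blue). All points lie right of 0, and among the members Iigp1 lies farthest out, at 3.998 in Tet2-deficient and 3.52 in wild-type cells.

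The loss of Tet2 in Th1 cells was the comparison in which Ifng changed within a subset. Ifng fell by 1.39 on the log2 scale in Tet2-deficient against wild-type Th1 cells (± 0.14, adjusted p = 0.00439, limma), with a 95% confidence interval from -1.68 to -1.09. None of the 9 member probe sets was called in either direction (limma, 0 of 9, where 0.00501% of all rows were called, namely Ifng itself), and 1 of the 9, Irgm1, had an unadjusted p under 0.05, as did 6.04% of all rows. Of the 9, 7 had a higher mean in Tet2-deficient than in wild-type Th1 cells. Their median log2 fold change was 0.19, against 0.01 over all rows, with a range from -0.06 to 0.45. The lowest bound of any member's 95% interval was -0.36, that of Gbp4, which lies above the whole interval of Ifng.

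Irgm1 had 9.55 and 9.46 on the Tet2-deficient Th1 arrays, both above the 9.15 and 8.96 of the wild-type Th1 arrays. Its log2 fold change was 0.45 (95% interval 0.15 to 0.76, adjusted p = 0.797, limma). It was the 1 member whose arrays did not overlap in that direction, which 19.5% of all rows showed. No member's arrays lay apart on the lower side, where those of 13.7% of all rows did. On the other 8 probe sets the genotypes overlapped. Iigp1 had 0.31 (-0.12 to 0.75), Gbp5 0.27 (-0.04 to 0.59), Gbp2 (shared) 0.24 (-0.29 to 0.77) and Igtp/Irgm2 0.19 (-0.16 to 0.54), none called. Gbp7 had 0.11 (-0.24 to 0.47), Gbp6 (shared) 0.06 (-0.22 to 0.33), Gbp3 -0.02 (-0.29 to 0.25) and Gbp4 -0.06 (-0.36 to 0.25), none called. Without Tet2-deficient Th1 replicate 2, the array on which Iigp1 and Gbp2 (shared) were highest, the median of the 9 was -0.01, and without Tet2-deficient Th1 replicate 1 it was 0.37. Without wild-type Th1 replicate 2 it was 0.13. The Ifng call itself ended under 4 of 18 alternatives. Adjusted p was 0.153 in a fit on both groups alone and 0.274 with every probe set tested (limma). The others left out wild-type Th1 replicate 2 (log2 fold change -1.24) or Tet2-deficient Th1 replicate 2 (-1.26). The log2 fold change of Ifng stayed between -1.53 and -1.24 in all 18.

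In Th17 cells, where Ifng was low in both genotypes (-0.05 ± 0.14, adjusted p = 0.99996, limma), no member was called between genotypes (limma, 0 of 9, where 0.0% of all rows were called). An unadjusted p under 0.05 was found for 3 of the 9, against 4.14% of all rows. They were Gbp6 (shared) at -0.41 (95% interval -0.68 to -0.13, adjusted p = 0.922), Gbp4 at -0.34 (-0.64 to -0.03) and Irgm1 at 0.31 (0.003 to 0.61). On the Tet2-deficient Th17 arrays Gbp6 (shared) had 7.39 and 7.47, against 7.81 and 7.87 on the wild-type Th17 arrays. Arrays did not overlap for 4 of the 9 on the lower side, namely Gbp4, Gbp6 (shared), Gbp7 and Iigp1, and for 2 on the higher side, Irgm1 and Gbp2 (shared). Over all rows 14.1% did not overlap on the lower and 18.8% on the higher side. The median log2 fold change of the 9 was -0.15, against 0.01 over all rows, and without wild-type Th17 replicate 2 it was 0.003. Xist differed among these arrays, as given above, and with its signal as a covariate no member was called either.

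The effect of Tet2 loss in Th1 cells minus that in Th17 cells had a median of 0.34 over the 9 probe sets, against 0.00 over all rows. No member's difference was called (limma, 0 of 9, and 0.0% of all rows), and Gbp6 (shared), at 0.46 ± 0.18, was the 1 member with an unadjusted p under 0.05, as were 4.48% of all rows. Without wild-type Th17 replicate 1 the median was 0.47, and without wild-type Th17 replicate 2 or Tet2-deficient Th1 replicate 2 it was 0.14 or 0.19. Even Ifng, at -1.34 ± 0.19, was not called for this difference (adjusted p = 0.152, limma). A missing call in this test therefore does not show that the effects were equal.

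**Figure D4:**
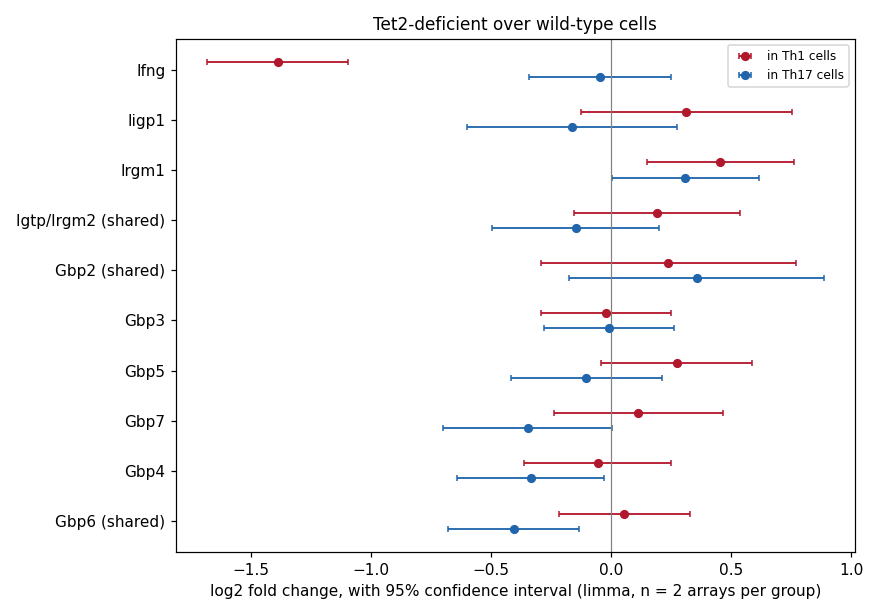
Log2 fold change of Tet2-deficient over wild-type cells (points) with 95% confidence intervals from limma, for Ifng and the 9 member probe sets, in Th1 (red) and Th17 cells (blue). The Th1 interval of Ifng, from -1.68 to -1.09, lies left of every member's interval, the lowest of which begins at -0.70 (Gbp7 in Th17 cells).

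Whether the members follow Ifng was thus read from the order of the 4 groups. Both Th1 means lay above both Th17 means on all 9 probe sets, as for Ifng. The highest group was Tet2-deficient Th1 on 7 of the 9, whereas it was wild-type Th1 for Ifng. Of these 7, all but Irgm1 had Th1 arrays that overlapped between genotypes. For Iigp1, Gbp2 (shared), Gbp6 (shared) and Gbp7 the sign of that step turned when an array was left out. The full order of Ifng was found on 2 of the 9, Gbp3 and Gbp4, where the step between wild-type Th1 and Tet2-deficient Th1 was within the spread between arrays. Between the arrays of a Th1 group Ifng differed by 0.25 (Tet2-deficient) and 0.29 (wild-type) on the log2 scale. The array with more Ifng was also the one with the higher member signal for 3 of 9 probe sets in Tet2-deficient Th1 and 2 of 9 in wild-type Th1 cells. The 9 probe sets of a group share its 2 arrays, so these counts are not independent. In the Th17 groups the Ifng signals differed too little, at a level under the array median, to order the arrays or the group means. The Th17 part of the full order therefore carries no weight. The arrays fall into a Th1 and a Th17 cluster of 4 each, and no correlation with Ifng across arrays was tested.

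The genes of the cytokine's signalling path were looked at next. Ifngr2, which encodes the second chain of the receptor, fell by 1.35 on the log2 scale in Th1 against Th17 cells among Tet2-deficient cells (adjusted p = 5.62e-05, limma) and by 1.28 among wild-type cells (adjusted p = 9.74e-05, limma). Jak1 was lower too, by -0.74 in Tet2-deficient and -0.50 in wild-type cells (adjusted p = 0.00304 and 0.0309, limma), and the phosphatase gene Ptpn6 was higher by 0.56 in Tet2-deficient and 0.46 in wild-type cells (adjusted p = 0.0159 and 0.0458, limma). Jak2 (-0.21 and -0.13), the receptor chain gene Ifngr1 (-0.41 and -0.08), the feedback inhibitor gene Socs1 (-0.12 and -0.52) and the phosphatase gene Ptpn2 (-0.21 and -0.26), each in Tet2-deficient and then in wild-type cells, were not called. Of the 8 measured genes of the list, 2 were called higher (Ifng and Ptpn6) and 2 lower in each genotype. Between genotypes in Th1 cells 1 of the 8 was called, Ifng. The other 7 had log2 fold changes from -0.09 to 0.24, with Ifngr1 at 0.12 and Ifngr2 at 0.10. In Th17 cells none was called, and Ifngr1 had 0.46 ± 0.13 (adjusted p = 0.779, limma).

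Of 17 other inducible GTPases listed, 7 had a probe set of their own, and of these 5 were called higher in Th1 than in Th17 cells in each genotype (Gbp8, Gbp9, Gbp11, Gm12250 and Gm4951). Their log2 fold changes ran from 1.33 (Gbp11) to 2.16 (Gm4951) in Tet2-deficient and from 0.87 (Gbp9) to 1.79 (Gbp8) in wild-type cells. Gbp2b (0.77 and 0.82) and Gm12185 (0.50 and 0.47), each in Tet2-deficient and then in wild-type cells, were not called. The median of the 7 was 1.45 in Tet2-deficient and 1.10 in wild-type cells. Gbp8, Gbp9 and Gbp11 are also among the genes of Gbp6 (shared), and Gbp2b of Gbp2 (shared), so these are not separate evidence from those members. Between genotypes in Th1 cells none of the 7 was called, with a median of 0.18, and Gbp9 had the largest difference, with 8.04 and 8.06 in Tet2-deficient Th1 cells, against 7.51 and 7.62 in wild-type Th1 cells (log2 fold change 0.49 ± 0.14, adjusted p = 0.797, limma). Gbp2b had 0.32 ± 0.28 there. In Th17 cells none was called, with a median of -0.12, and Gbp2b had 0.37 ± 0.28 and Gm12250 -0.23 ± 0.12.

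Of 15 other genes induced by interferon-gamma, 10 were called higher in Th1 than in Th17 cells and 1 lower (Upp1) among Tet2-deficient cells, and 8 higher and 1 lower (Upp1) among wild-type cells. Higher in both genotypes were the transcription factor genes Irf8 (log2 fold change 2.004 in Tet2-deficient and 1.998 in wild-type cells) and Irf1 (1.77 in Tet2-deficient and 1.06 in wild-type cells) and the antigen transporter gene Tap1 (1.52 and 1.41, in the same order). Also higher in both were Tap2, the immunoproteasome genes Psmb8, Psmb9 and Psmb10, and Cd274, which encodes the checkpoint ligand PD-L1, with log2 fold changes from 0.73 (Psmb10) to 1.32 (Psmb9) in Tet2-deficient and from 0.64 (Psmb8) to 1.29 (Psmb9) in wild-type cells. Nlrc5 (0.63) and Wars (0.72) were called in Tet2-deficient cells, and had 0.37 and 0.01 in wild-type cells. For neither gene did this difference between genotypes, 0.27 ± 0.16 for Nlrc5 and 0.71 ± 0.19 for Wars, pass its own test (adjusted p = 0.999 for each, limma). No row passed that test. Upp1 had -1.36 in Tet2-deficient and -0.94 in wild-type cells. Ciita and Ido1 lay under the array median on every array. Between genotypes in Th1 cells none of the 15 was called, and 11 lay above and 4 below 0. Their median was 0.19, with Wars at 0.64 ± 0.14 (adjusted p = 0.598, limma) and Irf1 at 0.58 ± 0.19 (adjusted p = 0.797, limma). Irf1 had 9.62 and 9.64 in Tet2-deficient Th1 cells, against 9.26 and 8.83 in wild-type Th1 cells, with no overlap on the higher side, which 19.5% of all rows showed. Cxcl10, a chemokine gene picked after its values were seen, lay on the other side, at -0.31 (95% interval -0.54 to -0.08, adjusted p = 0.797, limma). It had 6.48 and 6.56 in Tet2-deficient Th1 cells, against 6.86 and 6.79 in wild-type Th1 cells, with no overlap on the lower side, which 13.7% of all rows showed. In Th17 cells none was called (median 0.01), and Upp1 had 0.73 ± 0.24 (adjusted p = 0.955, limma) and Irf8 0.18 ± 0.19.

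Of the type I interferon-stimulated genes 16 were measured. Mx1 (5.50 to 6.09), Mx2 (4.63 to 5.37), Ifit2, Ifit3, Oas2 and Rsad2 lay under the array median on every array. Oasl2 did so on the Th17 arrays (5.88 to 6.14). The signs and medians of the list include these low signals. Between genotypes in Th1 cells 5 lay above and 11 below 0, with a median of -0.13, and Usp18 had -0.47 ± 0.11 (adjusted p = 0.797, limma), and Mx2 -0.30 ± 0.16. In Th17 cells 13 lay above and 3 below 0, with a median of 0.19, and Usp18 had 0.54 ± 0.11 (adjusted p = 0.547, limma) and Irf7 0.42 ± 0.16. None was called in either subset. For Usp18 the difference between these effects was -1.02 ± 0.16 (adjusted p = 0.202, limma). Between the subsets, 3 of the 16 were called higher in Th1 cells and 2 lower among Tet2-deficient cells, and 5 higher and 0 lower among wild-type cells. Usp18 (1.18 and 2.20), the RNA sensor gene Ifih1 (0.94 and 1.01) and Oasl2 (0.50 and 0.67) were higher in Tet2-deficient and in wild-type cells. Oas3 (1.10) and Irf9 (0.47) were called higher in wild-type cells, with 0.44 and 0.31 in Tet2-deficient cells. Ddx58 (-0.68) and Mx1 (-0.43) were lower in Tet2-deficient cells, with -0.05 and 0.09 in wild-type cells. For Oas3, Irf9, Ddx58 and Mx1 the difference between genotypes did not pass its own test (adjusted p = 0.999 for each, limma), which no row passed. The differences were -0.66 ± 0.19 (Oas3), -0.16 ± 0.19 (Irf9), -0.63 ± 0.20 (Ddx58) and -0.52 ± 0.16 (Mx1). The conjugation genes of autophagy (10 measured), whose products place these GTPases on vacuoles, had none called between subsets except Atg5, lower by -0.50 in wild-type Th1 than wild-type Th17 cells (adjusted p = 0.0338, limma), and none between genotypes. For Atg5 too, the difference between genotypes, 0.22 ± 0.18, did not pass that test (adjusted p = 0.999, limma). Among the conjugation genes the largest differences between genotypes were those of Map1lc3b (0.30 ± 0.21) and Gabarap (0.29 ± 0.14) in Th1 cells and Map1lc3b (0.23 ± 0.21) and Atg3 (-0.14 ± 0.14) in Th17 cells.

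**Figure D5:**
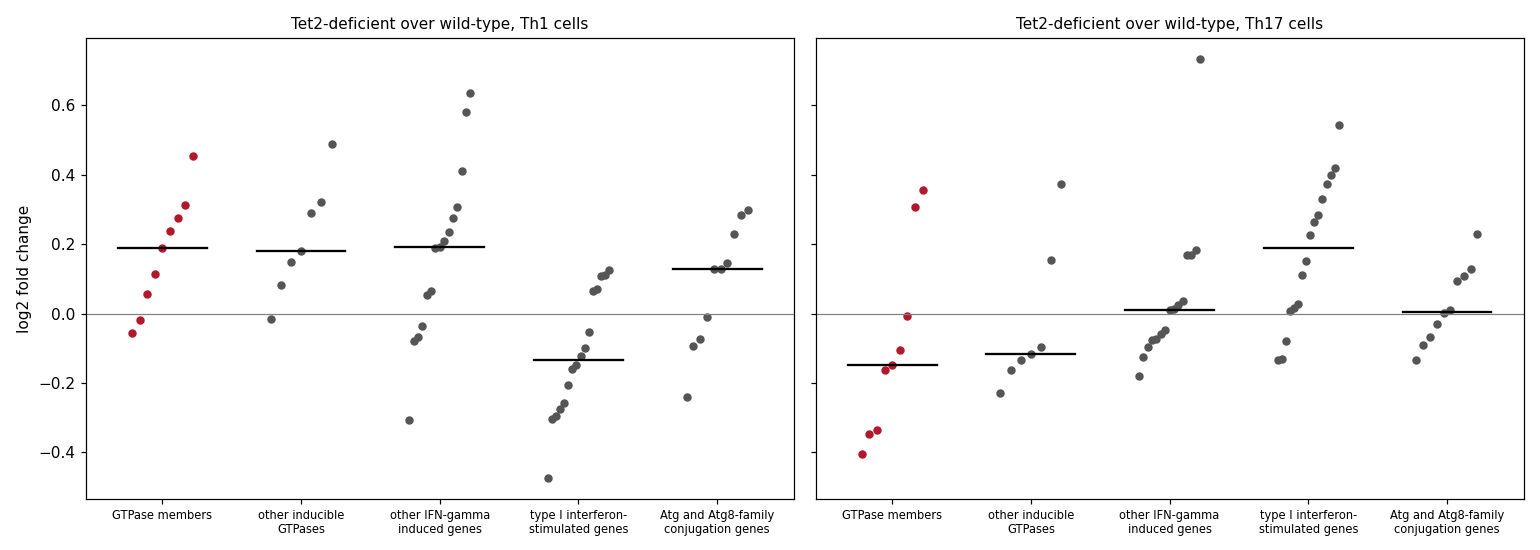
Log2 fold change of Tet2-deficient over wild-type cells for each measured gene (points) of 5 gene lists, with the list median (line), in Th1 cells (left) and Th17 cells (right). In Th1 cells the median of the 9 member probe sets is 0.19 and that of the 16 type I interferon-stimulated genes -0.13, and no point passed the test. Some of the type I genes lay under the array median on every array.

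The genes whose log2 signal over the 8 arrays was most like the mean of the 9 probe sets, by Pearson correlation after centring, were Gm12250 (r = 0.994), Gm4951 (0.994), Gbp11 (0.993), Gbp8 (0.991), Tbx21 (0.990), Prkca (0.988), Neb (0.988), Dapl1 (0.987), Clic4 (0.987) and Insl6 (0.987). The first 4 are other inducible GTPase genes, and Tbx21 encodes the Th1 transcription factor T-bet. These correlations are a description over 8 arrays that share their subset, and a gene that is high in Th1 and low in Th17 cells gets a high value whatever its level between genotypes. Tbx21 had 10.44 on both Tet2-deficient Th1 arrays and 10.26 and 10.20 on the wild-type Th1 arrays. It had 6.92 and 7.28 in Tet2-deficient Th17 cells and 7.45 and 7.85 in wild-type Th17 cells. Among the members, the correlation of a probe set with the mean of the others ran from 0.827 for Gbp2 (shared) to 0.993 for Iigp1.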

How the data were processed

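Gene expression was measured on 8 Affymetrix whole-transcript arrays, 2 for each of 4 groups. As deposited, each value is a log2 signal of a probe set, which the authors made with GCOS, RMA and Affymetrix Expression Console, per the submitters' processing notes. Versions, options and the order of steps are not given in the sources used here. RMA puts arrays on a common scale, so the values were used as they stood. Array signals carry no read depth; precision is limited by the number of arrays.

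Of 35556 probe sets, 21789 had a single symbol in the platform annotation of 2016, 21698 of these were matched by gene ID to GRCm38, 1621 had several symbols and the rest had no symbol. For a gene with several probe sets the highest mean was kept, which left 19938 genes, and the 3 shared probe sets of members were added. A signal from near-identical family members can include cross-hybridization.

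Limma 3.58.1 in R 4.3.3 fitted the 4 group means (lmFit, then eBayes with trend; 4 residual degrees of freedom, prior 8.31), in 5 two-sided contrasts adjusted by Benjamini-Hochberg over all 19941 rows, with 95% confidence intervals unadjusted for the number of genes. The script was tested on simulated data with independent normal noise, where 6.72% of its calls were false. Real arrays can depart from such noise. Same-numbered arrays did not deviate together (correlations of deviations from group means -0.19 to 0.06), so replicate number was not in the model. Members, gene lists and tests were chosen with earlier results of these data known. Named genes were all members, the called genes of each list or, with none called, the 2 with the largest change, the signalling genes, and the 10 genes most like the members; Gm12185 and Cxcl10 were added after their values were seen. Alternatives were a replicate block, a fit on both groups alone, rows above the median only, testing every probe set, averaging the probe sets of a gene, quantile normalization again, median centring, eBayes without trend or robust, Xist as a covariate, and leaving out each array. Genes read only by probe sets with several symbols, other than members, were not used.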

Additional observations from a re-analysis of the deposited data

How the results depend on the processing

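No member was called between genotypes, or for the difference of both effects, under any alternative run. With arrays left out or settings changed, 6 to 9 of the 9 probe sets were called higher in Th1 than in Th17 cells among Tet2-deficient cells and 6 to 8 among wild-type cells. The replicate block called 9 and 8, against 8 and 8 without it, and in Tet2-deficient cells it added Gbp2 (shared) (adjusted p = 0.0355). It changed no other member's call. Iigp1, Irgm1, Gbp4, Gbp6 (shared) and Gbp7 were called in both genotypes under all 18 alternatives.

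With an array left out, the members' median log2 fold change ranged from -0.0146 to 0.37 for Tet2 loss in Th1 cells, -0.21 to 0.00297 in Th17 cells and 0.14 to 0.47 for their difference. It ranged from 1.37 to 1.63 for Th1 over Th17 in Tet2-deficient and 1.15 to 1.49 in wild-type cells. Quantile normalization applied again gave 1.63 and 1.48. The cause was not tested.

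Signs turned, with none called, when an array was left out. For Tet2 loss in Th1 cells the ranges were -0.0748 to 0.70 (Iigp1), -0.25 to 0.72 (Gbp2 shared), -0.14 to 0.10 (Gbp3), -0.13 to 0.0173 (Gbp4), -0.0482 to 0.16 (Gbp6 shared) and -0.0933 to 0.32 (Gbp7). In Th17 cells they were -0.0938 to 0.0792 (Gbp3), -0.21 to 0.00297 (Gbp5) and -0.34 to 0.0471 (Igtp/Irgm2). For the difference they were -0.60 to 0.37 (Gbp2 shared) and -0.13 to 0.10 (Gbp3, 0.0666 with Xist as a covariate).

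Over all rows, Th1 over Th17 gave 2018 calls in Tet2-deficient cells, against 1001 with all probe sets, 728 with the Xist covariate and 803 to 2335 with an array left out. It gave 1678 in wild-type cells, against 599 with all probe sets, 1111 in a fit on both groups alone and 670 to 1555 with an array left out. Tet2 loss gave 1 call in Th1 cells, against 0 in a fit on both groups alone or with all probe sets and 0 to 2 with an array left out. In Th17 cells it gave 0, against 1 with the median filter, 2 with robust eBayes and 0 to 4 with an array left out, and the difference gave 0, against 0 to 4.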
